A study of Mus musculus with 8 samples.

Results

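The genes of fatty acid synthesis, elongation and desaturation were followed in MEFs, fibroblasts cultured from mouse embryos, that lacked Cebpg (Cebpg-/-) or had both of its copies (WT). The members are Acly, Acaca, Fasn, Elovl5, Elovl6, Scd1, Scd2, Fads1, Fads2 and Fads3, and every probe set whose platform annotation names one of these genes alone was taken. This gave 27 of 45037 probe sets, for 10 of 18193 genes. The product of Cebpg, C/EBPγ, belongs to the basic leucine zipper transcription factors and pairs with other members of that family on DNA. RNA of 4 Cebpg-/- and 4 WT samples was hybridised to 1 Affymetrix array each. The cells of both genotypes were C57BL/6 MEFs from E13.5 embryos, grown with 10% fetal bovine serum, plated at equal density at passage 3 and harvested 48 hours later. The labels name no Cre or transgene and do not describe the allele further, and an effect within the fibroblasts cannot be told apart from one on which cells grew out. The labels call the samples biological replicates without saying whether they came from separate embryos. The p-values given for other genes therefore measure the spread between these samples, and the number of arrays limits the precision. Values throughout are log2 expression after RMA, and all differences are Cebpg-/- minus WT.

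Cells build long fatty acids from citrate that leaves the mitochondrion. ATP citrate lyase (Acly) turns it into acetyl-CoA, acetyl-CoA carboxylase (Acaca) makes malonyl-CoA, and fatty acid synthase (Fasn) joins these units to palmitate. Enzymes of the endoplasmic reticulum then lengthen the chain (the Elovl family) and add double bonds (the Scd and Fads families). Many of these genes are transcribed under sterol regulatory element-binding proteins (SREBPs), transcription factors that are held in the membrane by Insig proteins when sterols are plentiful. Cultured fibroblasts draw fatty acids from serum and also make their own.

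The targeted gene was called lower on 1 of its 3 probe sets. On that one Cebpg had 5.42 to 5.69 on the Cebpg-/- arrays against 6.23 to 6.41 on the WT arrays, or 58.1% of WT (adjusted p = 0.000593 by limma). The brightest Cebpg probe set had 6.49 to 6.71 in Cebpg-/- against 6.60 to 6.92 in WT (limma adjusted p = 0.275), and the dimmest 2.96 to 3.20 in Cebpg-/- against 2.60 to 2.91 in WT (adjusted p = 0.0942). Which of these probe sets lie in the deleted sequence is not given in the sources used here. All 10 fibroblast markers lay above the median probe set (2.73) on average, with Vim, an intermediate filament of mesenchymal cells, at 12.46 ± 0.02 in Cebpg-/- and 12.44 ± 0.05 in WT (SD, n = 4 each). Of these markers 5 were called lower, among them Col1a1 by a difference of -1.05 and Fap by -0.88 (limma adjusted p = 0.00738 and 0.00207).

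All 10 genes were lower in Cebpg-/- MEFs by their brightest probe set, and 25 of the 27 probe sets had a negative difference. The differences of the brightest probe sets had a median of -0.40 and ran from -0.20 for Elovl5 to -0.96 for Scd2, while the median over all genes was -0.00092. The genes were put together with these differences known, so they are given as a description with no test. In the limma fit over all probe sets 12 of the 27 lay past the threshold of 0.05 as lower and 0 as higher, where 2.78% of all probe sets were called lower and 4.82% higher. By gene, 6 of 10 lay past it as lower (Acaca, Fasn, Scd2, Fads1, Fads2 and Fads3), where 3.99% of all genes did. All 4 Cebpg-/- arrays were below all 4 WT arrays in 13 of 27 member probe sets, where 6.31% of all probe sets had this order, and in 7 of 10 genes, where 6.74% of all genes had it. Nothing about the members is read from these shares, since this contrast chose them. Of the 27 probe sets 21 lay above the median probe set and all 21 of these had a negative difference. Of these 21, 11 were called lower and 12 had all Cebpg-/- arrays below all WT arrays, where 4.79% and 8.57% of all probe sets above the median did. The other 6 were dim (3 of Acly and 1 each of Acaca, Elovl6 and Scd2), and 4 of them had a negative difference.

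**Figure D1:**
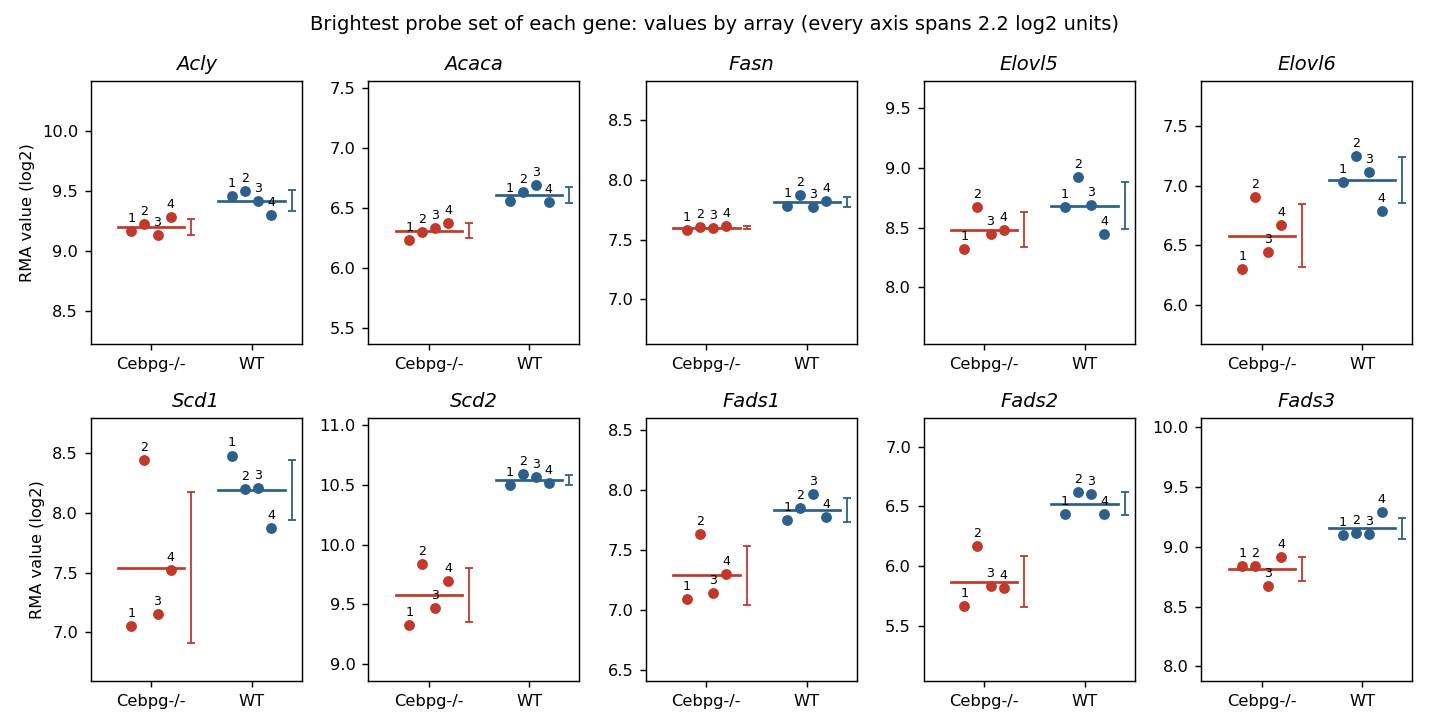
Log2 expression of the brightest probe set of each of the 10 genes, Cebpg-/- arrays left and WT arrays right, on axes that all span the same number of log2 units. Numbered points are single arrays, lines the means and bars the SD (n = 4 each). The groups do not overlap for Acly, Acaca, Fasn, Scd2, Fads1, Fads2 and Fads3, and they overlap for Elovl5, Elovl6 and Scd1.

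The sequence before the annotated start was read for 7 of the 10 genes from RefSeq (GRCm38.p6), in windows of 300 bases that hold 250 before and 50 after the start. Scd1, Scd2 and Fads1 had no window and were not searched. Whether transcription begins at these starts in MEFs was not tested. The window of Acaca had 39.7% G and C, where the next lowest, that of Elovl6, had 55.7%, so Acaca may not be a promoter like the others. The windows were searched on both strands for the sterol response element TCACNCCAC, the NF-Y box CCAAT, the GC box GGGCGG and the C/EBP-ATF response element TGATGNAAT. SREBPs bind the sterol response element, Sp factors bind GC boxes, and NF-Y is a common partner of SREBPs. Below are the last 150 bases before the start for 3 of the 4 genes with a CCAAT box (Fasn, Elovl5 and Fads3), for Acly, and for Fads2 beside its neighbour Fads3. Capitals mark CCAAT boxes (CCAAT or its complement ATTGG) and GC boxes (GGGCGG or CCGCCC).
Fasn: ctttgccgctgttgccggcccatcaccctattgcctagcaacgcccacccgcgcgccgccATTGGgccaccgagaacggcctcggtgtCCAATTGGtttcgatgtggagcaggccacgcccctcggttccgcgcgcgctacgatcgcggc
Elovl5: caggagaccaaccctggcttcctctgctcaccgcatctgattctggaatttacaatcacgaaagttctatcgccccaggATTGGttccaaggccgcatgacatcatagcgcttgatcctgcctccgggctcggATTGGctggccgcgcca
Acly: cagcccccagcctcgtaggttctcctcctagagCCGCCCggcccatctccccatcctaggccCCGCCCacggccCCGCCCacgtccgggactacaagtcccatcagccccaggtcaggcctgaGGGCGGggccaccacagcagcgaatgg
Fads3: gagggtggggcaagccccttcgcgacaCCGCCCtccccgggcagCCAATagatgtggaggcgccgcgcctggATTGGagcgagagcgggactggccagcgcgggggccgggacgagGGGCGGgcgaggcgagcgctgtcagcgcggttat
Fads2: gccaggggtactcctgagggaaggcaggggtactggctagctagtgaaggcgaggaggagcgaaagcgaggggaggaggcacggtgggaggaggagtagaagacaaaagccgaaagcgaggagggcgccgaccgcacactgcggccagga
The windows are chr11:120824548-120824697 on the minus strand for Fasn, chr9:77917215-77917364 on the plus strand for Elovl5, chr11:100528001-100528150 on the minus strand for Acly, chr19:10041398-10041547 on the plus strand for Fads3 and chr19:10101504-10101653 on the minus strand for Fads2.

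In the full windows, 4 of 7 genes held a CCAAT box (Acly, Elovl5, Fads3 and Fasn), as did 37.4% of the 32851 promoters of 27025 genes in the table. In Fasn, 2 of its 3 boxes overlap on opposite strands in the run CCAATTGG. The Acly box lies after the start and is outside the printed stretch. A GC box was found in 3 of 7 (Acly, Fads2 and Fads3) and in 35.7% of all promoters, and that of Fads2 lies further upstream than the printed bases. The sterol response element in this spelling was in 0 of 7 and in 1.24% of all promoters. The C/EBP-ATF response element was in 0 of 7 and in 0.965% of all promoters. A match of letters describes the sequence and is not a measured site, and a missing one says only that these letters are not in this window.

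The 3 genes of the path to palmitate had small differences with little spread. Acly had 9.16, 9.22, 9.13 and 9.28 on the Cebpg-/- arrays against 9.46, 9.50, 9.41 and 9.30 on the WT arrays, a difference of -0.22 ± 0.06 (SE). The highest Cebpg-/- array and the lowest WT array were nearly equal, and the other bright probe sets of Acly differed by -0.14 and -0.10. Acaca, the committed step, had 6.23, 6.30, 6.34 and 6.38 in Cebpg-/- against 6.56, 6.63, 6.69 and 6.55 in WT, a difference of -0.30 ± 0.06 (SE) or 81.4% of the WT level. Fasn, with 1 probe set, had 7.58, 7.60, 7.60 and 7.61 in Cebpg-/- against 7.78, 7.87, 7.77 and 7.82 in WT. Its difference of -0.21 ± 0.05 (SE) amounts to 86.2% of the WT level. For Acaca and Fasn the 2 genotypes lay apart by more than the range within either, and no Cebpg-/- array stood out.

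The 2 elongases differed from these in that both had overlapping groups. Elovl6 lengthens palmitate towards stearate and had 6.30, 6.91, 6.44 and 6.67 in Cebpg-/- against 7.03, 7.25, 7.11 and 6.79 in WT, a difference of -0.46 ± 0.14 (SE). Cebpg-/- replicate 2 reached into the WT range, between WT replicates 4 and 1. A further probe set of Elovl6 differed by -0.45 and a dim one by 0.05. Elovl5 acts on polyunsaturated chains, and had 8.32, 8.68, 8.45 and 8.48 in Cebpg-/- against 8.67, 8.93, 8.69 and 8.44 in WT. Its difference of -0.20 ± 0.11 (SE) was the smallest of the 10, and its lowest WT array lay below 3 of the Cebpg-/- arrays. Its other probe set had 8.20 to 8.48 in Cebpg-/- against 8.38 to 8.86 in WT, a difference of -0.31.

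Scd2 had the largest difference of the 10 genes and Scd1 the most uneven one. Both encode stearoyl-CoA desaturases, which put the first double bond into stearate and palmitate. Scd2 had 9.33, 9.84, 9.47 and 9.69 on the Cebpg-/- arrays against 10.50, 10.59, 10.56 and 10.51 on the WT arrays. This is a mean of 9.58 ± 0.23 in Cebpg-/- and 10.54 ± 0.04 in WT (SD, n = 4 each), 51.4% of the WT level. The WT arrays lay within a narrow band, and the Cebpg-/- arrays were all below it and spread more widely. A second probe set of Scd2 differed by -0.99 with the same separation, and a dim one by -0.51.

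Scd1 had 7.05, 8.44, 7.15 and 7.52 in Cebpg-/- against 8.48, 8.19, 8.21 and 7.87 in WT. Cebpg-/- replicate 2 lay 1.19 above the mean of the other 3 Cebpg-/- arrays and within the WT range, while those 3 were below every WT array. The difference was -0.65 ± 0.27 (SE) with all arrays and -0.95 without Cebpg-/- replicate 2. The dimmer probe set of Scd1 had 4.28, 4.87, 4.48 and 4.55 in Cebpg-/- against 5.12, 5.36, 5.04 and 4.89 in WT, a difference of -0.56 ± 0.13 (SE). Its groups did not overlap, but Cebpg-/- replicate 2 was again the highest Cebpg-/- array.

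Markers of 3 cell types were set beside the members over the arrays. The mean of the 10 fibroblast markers was 8.94, 9.45, 9.01 and 9.22 on the Cebpg-/- arrays against 9.60, 9.65, 9.71 and 9.54 on the WT arrays, with a median difference of -0.46. The groups did not overlap, and the Cebpg-/- arrays stood in the same order as in the mean of the 10 members, which was 7.56, 7.96, 7.62 and 7.77 in Cebpg-/- against 8.18, 8.25, 8.21 and 8.08 in WT. The part of the fibroblast markers in the members' differences was not tested. Scd1 is abundant in fat cells, so adipocyte markers were set beside it, of which 5 of 7 were measured and 2 lay above the median probe set. Their mean was 2.48, 3.64, 2.61 and 2.65 on the Cebpg-/- arrays against 3.05, 2.48, 2.37 and 2.28 on the WT arrays. Summed over the list this is 12.4 to 18.2 in Cebpg-/- against 11.4 to 15.3 in WT. The 5 markers were mixed in direction, with a median difference of -0.06, 3 of them below 0 and 0 called by limma. Fabp4, the fatty acid carrier of adipocytes, had 5.10, 7.32, 5.51 and 5.50 in Cebpg-/- against 6.01, 4.31, 4.05 and 3.86 in WT, and Adipoq (adiponectin) reached 4.06 on Cebpg-/- replicate 2 alone, with 1.48 to 2.55 on the 7 other arrays. So the array of each genotype with the highest value on the brightest Scd1 probe set was also its highest in adipocyte markers. On the dimmer Scd1 probe set the highest WT array was replicate 2 (5.36) and not replicate 1 (5.12). Without Cebpg-/- replicate 2 and WT replicate 1, the brightest probe set of Scd1 differed by -0.85.

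The same arrays also differed in leukocyte markers. The mean of 18 such markers was 7.72, 5.03, 7.05 and 6.66 on the Cebpg-/- arrays against 3.66, 5.58, 5.48 and 5.68 on the WT arrays, and 17 of the 18 lay above the median probe set. Summed, they ran from 90.6 to 139 in Cebpg-/- against 66.0 to 102 in WT. The median difference was 1.57, with 14 of 18 higher at an unadjusted p under 0.05 and 1 called, Cd14 (1.37, limma adjusted p = 0.0316). How many of all genes pass the unadjusted threshold was not computed. Cebpg-/- replicate 2, with the highest level of most members among its genotype, had the lowest leukocyte level of its genotype. In bulk RNA, fewer cells of a type and less RNA per cell cannot be told apart.

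**Figure D2:**
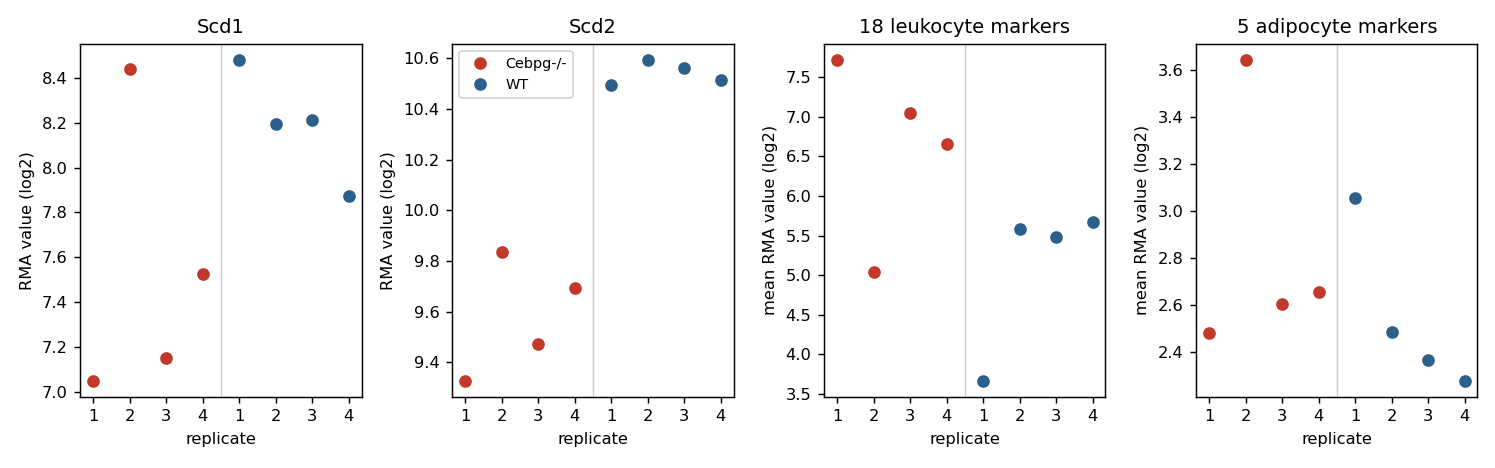
Log2 level of Scd1, of Scd2, and of the mean of 18 leukocyte and of 5 adipocyte markers on each array, Cebpg-/- arrays left of WT arrays. Cebpg-/- replicate 2 has the highest Scd1 (8.44) and adipocyte mean (3.64) and the lowest leukocyte mean (5.03) of its genotype, while Scd2 is below every WT array on all 4 Cebpg-/- arrays.

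With the leukocyte mean as a covariate in the fit, all 10 differences kept their sign, and 7 of the 10 were smaller. Scd1 was then at -0.03, Elovl5 at -0.09, Elovl6 at -0.26, Fads1 at -0.39 and Fads2 at -0.52. Acly was at -0.17 and Scd2 at -0.81. Acaca (-0.30), Fasn (-0.22) and Fads3 (-0.35) were slightly larger than without the covariate. Scd2 was the only one of the 10 past the threshold in that fit, in which 123 of the 18193 genes were called lower. The leukocyte mean itself went with genotype. Of the Cebpg-/- arrays only replicate 2 (5.03) lay within the WT range of 3.66 to 5.68. A part that goes with genotype and a part that goes with leukocyte markers therefore cannot be told apart by this fit.

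Cebpg-/- replicate 2 lay above the other Cebpg-/- arrays for some members and not for others. Cebpg-/- replicate 2 exceeded the mean of the other 3 by 0.26 for Elovl5, 0.34 for Scd2, 0.40 for Fads2, 0.43 for Elovl6 and 0.46 for Fads1. For Acly, Acaca, Fasn and Fads3 it differed from that mean by -0.02 to 0.03. Replicate 2 was the highest Cebpg-/- array for 6 of 10 genes, against 30% of all genes above the median probe set, and replicate 1 was the lowest for 8 of 10, against 24.2%. Without replicate 2, 9 of 10 genes and 17 of 27 probe sets had all Cebpg-/- values below all WT values, where 10.4% of all genes and 9.81% of all probe sets had. Leaving out the array that is highest for most members raises their separation by itself. These shares are therefore not a like background, and nothing is read from them.

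The 3 Fads genes were all lower, and the groups did not overlap on the brightest probe set of each. Fads2 carries out the first desaturation of the essential fatty acids linoleate and alpha-linolenate, and had 5.67, 6.17, 5.83 and 5.81 in Cebpg-/- against 6.44, 6.62, 6.60 and 6.44 in WT. Its difference was -0.65 ± 0.10 (SE), 63.6% of the WT level, and its other probe sets differed by -0.51 and -0.75. Fads1 desaturates the product further, towards arachidonate, and had 7.09, 7.63, 7.14 and 7.30 in Cebpg-/- against 7.75, 7.85, 7.97 and 7.77 in WT. The difference was -0.55 ± 0.11 (SE), and the dimmer probe set, with overlapping groups, differed by -0.31. Fads3, which acts on sphingoid bases, had 8.84, 8.84, 8.67 and 8.91 in Cebpg-/- against 9.10, 9.12, 9.11 and 9.29 in WT. Its 3 probe sets all differed by -0.34, with an SE of 0.07 for the brightest, and 2 of them share a transcript record in the annotation. On the dimmest one the groups overlapped, with 4.49 to 4.94 in Cebpg-/- against 4.85 to 5.19 in WT.

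**Figure D3:**
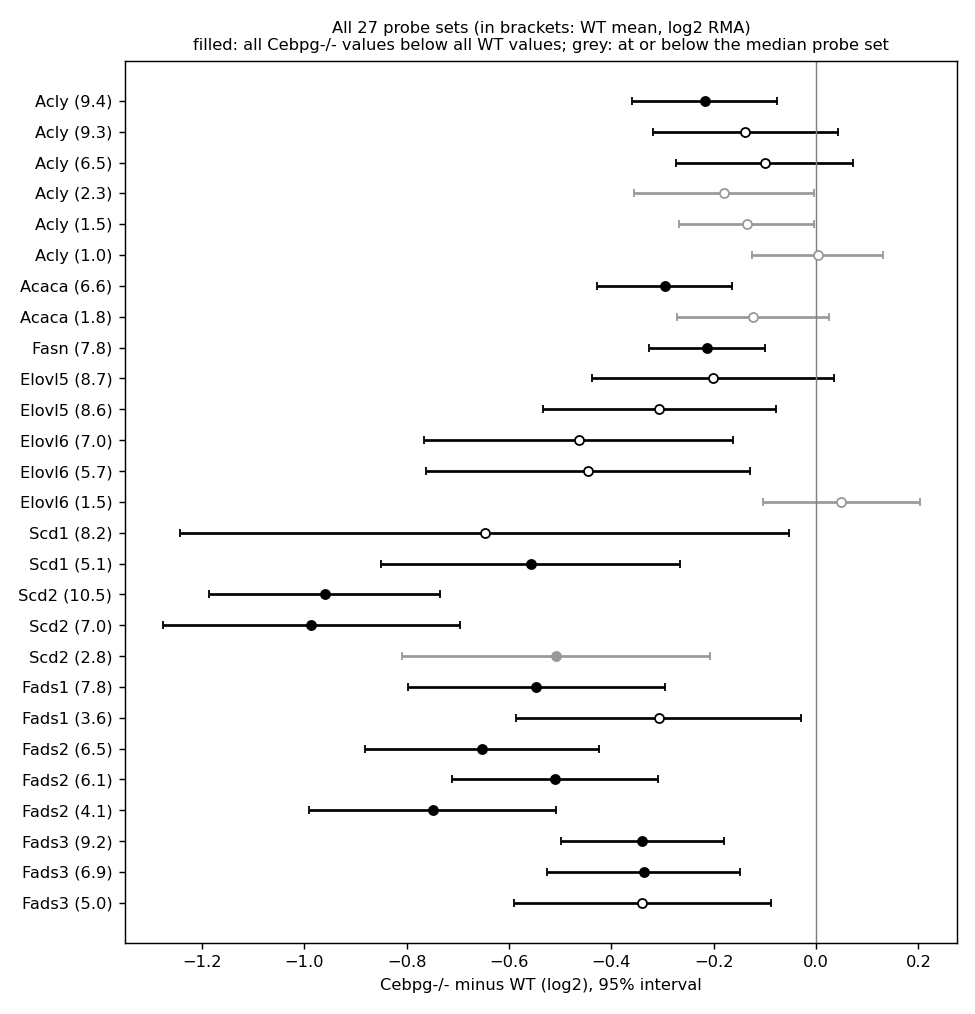
Difference (Cebpg-/- minus WT, log2) with its 95% interval for each of the 27 probe sets, grouped by role, with the WT mean in brackets. Filled points have all Cebpg-/- values below all WT values (13 of 27), and grey points lie at or below the median probe set. The 2 bright Scd2 probe sets lie furthest left, at -0.96 and -0.99.

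Both desaturase families lie in clusters on chromosome 19, and their neighbours, chosen after the members' values were seen, did not share 1 direction. Beside the run of Fads3, Fads2 and Fads1, the next gene past Fads1, Fen1 (a flap endonuclease of DNA replication), differed by -0.09 (95% interval -0.29 to 0.10, limma adjusted p = 0.508). Tmem258, a subunit of the oligosaccharyltransferase complex, was called lower at -0.34 (adjusted p = 0.0160), and Myrf was not called at -0.11 (adjusted p = 0.635). On the other side Rab3il1 (0.20) and Best1 (-0.22) were not called (limma adjusted p = 0.304 and 0.123), and Fth1, the ferritin heavy chain, was higher by 0.81 (adjusted p = 0.00339). Around the Scd genes, Bloc1s2, a subunit of the BLOC-1 complex, was higher by 0.40 (adjusted p = 0.00364). Ndufb8, a respiratory complex I subunit, was not called at 0.15 (adjusted p = 0.109). Scd3, a further desaturase of the cluster, was dim, with 2.48 ± 0.09 in Cebpg-/- and 2.67 ± 0.20 in WT (SD, n = 4 each, limma adjusted p = 0.226). Wnt8b and Pkd2l1 were dim as well and not called, and Scd4 and Sec31b were not analysed here.

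Genes around these enzymes were read from 7 lists of 118 genes that hold no member, of which 110 were measured. Of these 19 were called higher and 6 lower by limma, where 8.62% of all genes were called higher and 3.99% lower. Those shares are not a like background, since 91 of the 110 genes lay above the median probe set. Above that median 4.79% of probe sets were called lower, against 2.78% of all probe sets. The median difference of the 110 genes was 0.06. The 10 enzymes and the rest of the lipid genes are described side by side, and the difference between them was not tested. Of the 25 calls, 24 are named below with their values.

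Precursor supply and enzyme regulators had 2 of 15 measured genes higher, 2 lower and 11 not called, with a median of 0.01. Pgd, an NADPH-making enzyme of the pentose phosphate path, had 10.20 ± 0.14 in Cebpg-/- and 9.62 ± 0.09 in WT (limma adjusted p = 0.00260). Malic enzyme Me1, another source of NADPH, was higher by 0.33 (adjusted p = 0.0275). The cytosolic isocitrate dehydrogenase Idh1 was lower at -0.50 (adjusted p = 0.0271). Mid1ip1, which promotes the assembly of acetyl-CoA carboxylase, was lower at -0.32 (adjusted p = 0.0370). The citrate carrier Slc25a1 differed by -0.12 (95% interval -0.25 to 0.01, limma adjusted p = 0.199) and the acetyl-CoA synthetase Acss2 by -0.18 (-0.60 to 0.23, adjusted p = 0.558), and neither was called. Thrsp and the dim Acacb were not called either (limma adjusted p = 0.275 and 0.791). Me1 was no longer called without WT replicate 1 or 2 or Cebpg-/- replicate 1 or 4 (limma adjusted p up to 0.0822). Idh1 was called only without WT replicate 4 or Cebpg-/- replicate 2 when 1 array was left out (up to 0.0813), and Mid1ip1 only without WT replicate 2 or Cebpg-/- replicate 2 (up to 0.101).

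The other enzymes of elongation and desaturation had 3 calls, where 12.6% of all genes were called in either direction. Of 12 further genes of the elongation cycle 1 was called higher and 0 lower, with a median of 0.02. Counts at an unadjusted p under 0.05 were 2 higher and 1 lower, with no share of all genes computed beside them. The called gene, Elovl4 (an elongase of very long chains), had 4.27 ± 0.23 in Cebpg-/- and 3.35 ± 0.64 in WT (SD, n = 4 each, limma adjusted p = 0.0483). When 1 array was left out it stayed called only without WT replicate 4 or Cebpg-/- replicate 2 (adjusted p up to 0.125). Elovl1 differed by -0.04 (95% interval -0.20 to 0.12, limma adjusted p = 0.751), and Hsd17b12, a reductase of the cycle, by 0.25 (adjusted p = 0.0572). The dim Elovl7 was at 0.33 (adjusted p = 0.192). Among 10 further desaturases and electron carriers, 1 was higher, 1 lower and 8 not called. Cytochrome b5 (Cyb5a), which hands electrons to the desaturases, had 9.12 ± 0.11 in Cebpg-/- and 8.39 ± 0.22 in WT (limma adjusted p = 0.00299). Cyb5r1, a reductase of the cytochrome b5 reductase family, had 8.78 ± 0.09 in Cebpg-/- and 9.22 ± 0.13 in WT (adjusted p = 0.00673). The sphingolipid desaturase Degs1 was not called at 0.14 (adjusted p = 0.159).

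Of 19 measured genes that control lipid synthesis 2 were lower, 2 higher and 15 not called, with a median of -0.02. Insig1, which retains SREBPs in the endoplasmic reticulum and is itself an SREBP target, had 6.06, 6.63, 6.17 and 6.49 in Cebpg-/- against 7.33, 7.22, 7.21 and 7.12 in WT (difference -0.88, limma adjusted p = 0.00222). Srebf2, the SREBP best known for sterol synthesis, had 5.85, 6.11, 5.81 and 5.98 in Cebpg-/- against 6.34, 6.53, 6.46 and 6.53 in WT (difference -0.53, adjusted p = 0.00343). The groups did not overlap for either gene, and Cebpg-/- replicate 2 was again the highest of its genotype. Srebf1, the SREBP best known for fatty acid synthesis, had 7.17 ± 0.04 in Cebpg-/- and 7.14 ± 0.10 in WT (SD, n = 4 each). Its difference of 0.03 had a 95% interval of -0.11 to 0.17 (limma adjusted p = 0.791). Array values of its mRNA do not measure the cleaved, active protein. The SREBP escort Scap was higher by 0.28 (limma adjusted p = 0.0159), but its other probe set differed by -0.01. Mlx, the dimer partner of the carbohydrate-response factor, was higher by 0.27 (adjusted p = 0.0369), and was not called without WT replicate 1 or 3 or Cebpg-/- replicate 1, 2 or 3 (up to 0.0916). Insig2 (0.24), Nr1h3 (-0.08) and the dim Mlxipl (-0.16) were not called (limma adjusted p = 0.0707, 0.424 and 0.240).

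Fatty acid activation and glycerolipid synthesis had 4 of 25 measured genes higher, 1 lower and 20 not called, with a median of 0.09. Dgat2, which completes triglycerides, had 4.86 ± 0.07 in Cebpg-/- and 4.44 ± 0.08 in WT (limma adjusted p = 0.00344). Agpat5 and the phosphatidate phosphatase Lpin1 were higher by 0.37 and 0.32 (limma adjusted p = 0.00678 and 0.0253). The other 2 probe sets of Agpat5 differed by -0.06 and 0.18. The acyltransferase Gpat3 was higher by 0.45 but dim in WT (limma adjusted p = 0.0300). Acsl3, an acyl-CoA synthetase of lipid droplets, was lower, with 5.23 ± 0.24 in Cebpg-/- and 5.84 ± 0.17 in WT (adjusted p = 0.0120). Lpin1 was not called without WT replicate 1 or 2 or Cebpg-/- replicate 1 (adjusted p up to 0.0735), and Gpat3 stayed called only without WT replicate 4 or Cebpg-/- replicate 2 (up to 0.0874).

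Enzymes of fatty acid oxidation had 7 of 20 measured genes higher, 0 lower and 13 not called, with a median of 0.17. At an unadjusted p under 0.05 limma gave 10 higher and 0 lower, but the share of all genes past that threshold was not computed. Cpt1a, which loads fatty acids onto carnitine for entry into mitochondria, had 6.76, 6.23, 6.69 and 6.50 in Cebpg-/- against 5.61, 5.78, 5.89 and 5.96 in WT (difference 0.73, limma adjusted p = 0.00494). The groups did not overlap, and Cebpg-/- replicate 2 was the lowest of its genotype, where it was the highest for Scd1 and Scd2. Cpt1c (0.35), the carnitine carrier Slc25a20 (0.33), the dehydrogenases Hadh (0.35) and Acadl (0.24), and the enoyl-CoA isomerase Eci1 (0.28) were also higher, with limma adjusted p between 0.00452 and 0.0250. The seventh, Ehhadh of peroxisomes, was dim. It falls outside the rule for names and was added after its values were seen. Acadl had another probe set at -0.05. It was not called without WT replicate 1, 2 or 3 or Cebpg-/- replicate 1 or 3 (adjusted p up to 0.0749), and Eci1 not without WT replicate 1 or Cebpg-/- replicate 1 or 3 (up to 0.0548). The count of 7 was 4 without WT replicate 1, without Cebpg-/- replicate 1 and without Cebpg-/- replicate 3, and 1 with the leukocyte mean as a covariate. Of 9 measured genes of mitochondrial fatty acid synthesis 2 were higher, Oxsm by 0.49 and Lias by 0.21 (limma adjusted p = 0.0113 and 0.0248). The other 4 probe sets of Oxsm lay between -0.13 and 0.14. Lias was not called without WT replicate 1 or Cebpg-/- replicate 1, 3 or 4 (adjusted p up to 0.0730).

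Of the 24 named genes that were called in these lists, 14 stayed past the threshold in all 8 fits that leave out 1 array, and all 24 kept their direction under every alternative run. With the leukocyte mean as a covariate 5 stayed called, namely Cpt1a (0.46), Cyb5a (0.70), Dgat2 (0.45), Insig1 (-0.64) and Pgd (0.45), with limma adjusted p between 0.0178 and 0.0435. Srebf2 was at -0.49 in that fit (limma adjusted p = 0.0526).

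**Figure D4:**
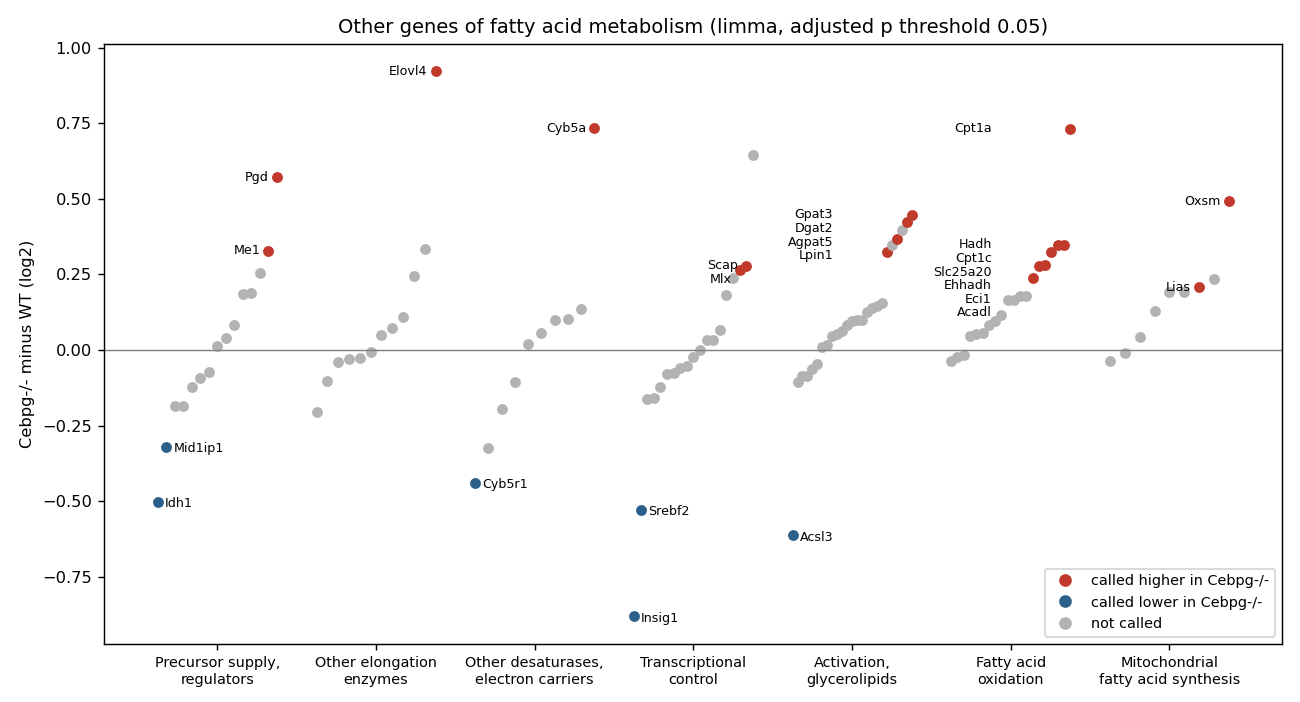
Difference (Cebpg-/- minus WT, log2) of the 110 measured genes in the 7 lists around the members, 1 column per list. Red points were called higher, blue points lower and grey points not called by limma. The oxidation column holds 7 red and 0 blue points, and Insig1 and Srebf2 are the blue points of the control column.

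Genes whose pattern over the 8 arrays most resembled that of a member were listed for Fasn and for Scd1, as a description with no p. Among 11653 genes above the median probe set, those closest to Fasn by Pearson r were Trib3 (0.984), Dach2 (0.983), Iars (0.980), Tvp23b (0.977) and Ldb2 (0.974). A value over 0.9 with Fasn was found for 1.81% of these genes. Those closest to Scd1 were Map3k14 (0.976), Atf4 (0.976), Aoc3 (0.972), Hes1 (0.970) and Bcl11b (0.969), with 0.867% over 0.9. The 8 points of each correlation hold 2 genotypes and share the arrays, so a genotype difference alone raises r for Fasn. No gene was in both lists of 5.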

How the data were processed

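The authors deposited 1 log2 value for each probe set on each array, and the submitters' processing notes name RMA as the tool that made them. The version of RMA is not given in the sources used here. Scanner files were not used, so calls above background were not made. Of 45101 probe sets 64 controls were left out. The platform annotation names 1 gene for 34945 probe sets, several for 932 and none for 9160. Symbols of 34741 were updated through Entrez numbers (RefSeq, GRCm38.p6), and the brightest probe set over all 8 arrays stands for a gene. The table held 0 columns of other samples, and array medians ran from 2.70 to 2.76.

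The fit (limma 3.58.1, R 4.3.3) covered all 45037 probe sets, genotype as the only term, Benjamini-Hochberg adjusted over all probe sets or all 18193 genes, threshold 0.05. In 10 draws of simulated data over 18193 genes, 200 genes were changed and noise was drawn independently for each gene and array. There 75% of changes of 0.5 and 98.1% of changes of 1 (log2) were called, and 4.66% of calls were false. The simulated noise holds no variation shared between genes, and its variances were drawn from the limma fit itself. The 200 changed genes were also a smaller part of all genes than the 12.6% called in the data. These rates therefore need not hold for the real arrays. SE and 95% intervals come from the fit to the real arrays.

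The members, the 7 lists of other lipid genes and the 6 marker lists (leukocytes, adipocytes, hepatocytes, epithelial cells, Schwann cells and glia, fibroblasts) were chosen with earlier results of these data known. Named were every member, up to 6 called genes of each list with the lowest p, a fixed set of regulators and enzymes, and the 5 genes most like Fasn and Scd1. A gene of these lists without a probe set of its own (Acsl1 among the fixed set) was not analysed here.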

Additional observations from a re-analysis of the deposited data

Results flagged for a closer look

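Single arrays far from the other 3 of their genotype were looked for in 126 groups (each member probe set and each named gene in each genotype). In 6 groups the gap from the end array to its nearest neighbour was a larger part of the whole range than Dixon's 95% critical value for 4 samples, which chance gives in about 5% of groups. WT replicate 4 was the array in 4 of them. It was highest for the dim Scd2 probe set (3.20, others 2.61 to 2.68), for the brightest Fads3 probe set (9.29, others 9.10 to 9.12) and for Hsd17b12 (9.57, others 9.37 to 9.41). It was lowest for Srebf1 (6.98, others 7.17 to 7.20). WT replicate 3 was highest for Pgd (9.76, others 9.57 to 9.60), and Cebpg-/- replicate 2 was highest for Lpin1 (4.81, others 4.54 to 4.56).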

How the results depend on the processing

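All 10 members kept a negative difference under all 17 alternatives, with Scd2 between -1.06 and -0.81 and Scd1 between -0.95 and -0.03, and the 24 called lipid genes named kept their direction too. Of the genes named but not called, the sign changed for Srebf1 (without WT replicate 4, and after quantile normalization), Acacb (without WT replicate 4, and with its probe sets averaged), Acss2 (without WT replicate 2) and Elovl1 (without WT replicate 3). Against 1569 genes called higher and 726 lower, 2170 probe sets higher and 1254 lower, 6 member genes and 12 member probe sets lower, and 19 other lipid genes higher and 6 lower, the leukocyte covariate left 261, 123, 296, 188, 1, 3, 5 and 1 in the same order. Without both arrays numbered 1 these were 347, 182, 315, 212, 2, 3, 5 and 3. Without Cebpg-/- replicate 2 and WT replicate 1, chosen after seeing the data, 987 genes and 1303 probe sets were higher, 774 probe sets lower and 10 other lipid genes higher. Leaving out each array in turn gave 780 to 1690 genes higher, 395 to 969 lower, 929 to 2511 probe sets higher, 531 to 1851 lower, 5 to 8 member genes, 5 to 15 member probe sets, 10 to 22 other lipid genes higher and 4 to 7 lower. Counts of genes and of probe sets moved by over 1.5 times without WT replicate 1 or 3 or Cebpg-/- replicate 1 or 3, those of probe sets also without Cebpg-/- replicate 4. The count of member probe sets did so without WT replicate 3 (7) and Cebpg-/- replicates 1 (5) and 3 (6), and that of other lipid genes higher without WT replicate 1 (10) and Cebpg-/- replicates 1 (10) and 3 (12). Samples of equal replicate number had correlations of deviations of -0.36, 0.17, 0.03 and 0.09. Unequal numbers were not set beside them, so these values do not settle whether the samples were paired. The replicate block gave 978 genes and 1203 probe sets higher, 708 probe sets lower and 11 other lipid genes higher. Fewer arrays leave fewer degrees of freedom, and the cause of the other shifts was not tested. Of the called genes 68.4% were higher, against 56.7% after quantile normalization and 78.9% after subtracting array medians, which moved the median of all genes by 0.03. When a gene's probe sets were averaged, Acadl, Agpat5, Oxsm and Scap were no longer called (limma adjusted p between 0.108 and 0.233).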

Other observations

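Markers of 3 further cell types were also read. Of hepatocyte markers 6 of 7 were measured and 2 lay above the median probe set. Among the 6 measured, 5 had a negative difference, and the median was -0.04. Afp, the fetal liver protein, was called higher but dim, with 2.70 ± 0.56 in Cebpg-/- and 1.47 ± 0.07 in WT (SD, n = 4 each, limma adjusted p = 0.00784), and albumin (Alb) had 1.60 ± 0.09 in Cebpg-/- and 1.65 ± 0.19 in WT. Of 7 epithelial markers Krt19 was higher by 0.53 and Epcam lower at -0.34 (limma adjusted p = 0.0211 and 0.0200). Of 5 measured markers of Schwann cells and glia 4 lay above the median probe set and 1 had a negative difference, with a median of 0.16. Mbp was the only one called, higher by 0.60 (limma adjusted p = 0.0212). Pparg, the driver of fat cell formation, had 3.83 ± 0.47 in Cebpg-/- and 3.19 ± 0.21 in WT and was not called (limma adjusted p = 0.0685). It was named after its values were seen.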
